A study of Arabidopsis thaliana with 6 samples.

Results

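The chloroplast genome of Arabidopsis thaliana carries, besides the genes for photosynthesis, a set of genes for its own gene expression machinery and for a few other plastid tasks. Their transcripts were read on Affymetrix ATH1 arrays. The members were all probe sets annotated to a plastid locus whose symbol does not start with psa, psb, pet, atp, ndh or rbc and is not ccsA. That rule uses annotation alone and no measured value, but it was chosen with earlier results of these data known. It gave 32 of the 77 plastid probe sets, among 22810 probe sets on the array. They represent 31 gene symbols, since rps12 has 2 probe sets. By role they were 4 probe sets for subunits of the plastid RNA polymerase, 11 for proteins of the small ribosomal subunit, 9 for the large subunit, 1 for the maturase matK and 7 for other functions (clpP, accD, ycf1, ycf2, ycf3, ycf4 and cemA).

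Chloroplasts keep a transcription and translation system of bacterial type. The rpo genes encode the core of the plastid-encoded polymerase, which needs sigma factors made in the nucleus, and a phage-type polymerase from the nucleus transcribes others, among them the rpoB operon and accD. The plastid ribosome is a mosaic, with rRNA and some proteins from the plastid genome and the other proteins imported. Most plastid genes are transcribed in long clusters that are then cut, spliced and trimmed. In plastids a short poly(A) tail marks an RNA for decay and is not the stable tail of a nuclear mRNA, whereas the labelling kit named in the labels starts copying from poly(A) tails. The values here are therefore levels of what that labelling picked up, and decay rates were not analysed here.

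The series asks, by its title, how RLI affects RNA stability. RLI, known as ABCE1 in animals, is an ATPase that splits ribosomes into subunits after translation ends. The 6 arrays were hybridised with biotin-labelled copies made from total RNA of whole plants grown on soil, with rinsed roots. The RNA of 3 arrays was from wild type (WT) and that of 3 from a line labelled as carrying a T-DNA insertion in RLI. Both groups carry the source name Co-1 and the stock code N1084. The developmental stage was given as 3.20 for every WT sample and 1.14 for every rli sample, with weeks as the unit, and whether these are ages or stage codes is not settled by the labels. Genotype and labelled stage cannot be told apart. The labels do not say that replicates came from separate plants or growths, so p-values cover the spread of these samples alone, which may be technical. No RLI locus had a named probe set, and the genotype was therefore not checked against its transcript.

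WT replicate 3 stood apart from the other 5 arrays. Over all 22810 probe sets, with no expression filter and with controls, its correlation with them was 0.75 to 0.80, against 0.85 to 0.92 among the others. Its median intensity over all probe sets was 53.0, against 35.8 to 46.4 elsewhere, although the trimmed mean was scaled to 100.01 on every array. The counts and medians of the genotype comparison below are given with and without it, and single differences without it for some members only. The covariate fits use all 6 arrays. RCA, a leaf marker that encodes Rubisco activase, read 4079 to 6301 on the 6 arrays and PYK10, a root marker that encodes a beta-glucosidase, read 855 to 1254, and neither changed (rli minus WT -0.39 ± 0.20 and 0.21 ± 0.19 on the log2 scale, adjusted p = 0.30 and 0.60). Without WT replicate 3 these were -0.45 ± 0.17 and 0.09 ± 0.15 (adjusted p = 0.11 and 0.76). The other 3 leaf and 2 root loci of those lists, and every flower and seed locus, had no named probe set.

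Values per array are deposited intensities, in the order of replicates 1, 2 and 3 where a group is given. Differences are rli minus WT on the log2 scale ± limma's standard error, n = 3 arrays per group, and adjusted p-values are from limma with Benjamini-Hochberg adjustment over all 13648 tested probe sets. "Rose", "fell" and "changed" mean an adjusted p below 0.05. Levels of different probe sets are not set against each other, since probes differ in how well they bind, except to mark low or high readings beneath a ratio.

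With all 6 arrays, none of the 32 transcripts changed between rli and WT. The count was 0 of 32 by limma, where 6.80% of all tested probe sets changed (4.27% rose and 2.53% fell). At an unadjusted p below 0.05 it was 1 of 32, rps19, against 2880 of 13648. The median difference over the members was 0.12, with 20 above 0 and 12 below, and it ranged from -0.48 for rps4 to 2.45 for rps14. The median over all tested probe sets was 0.04. For 31 of the 32 the 95% interval of the difference held 0, and those intervals were wide, reaching from -1.43 to 6.33 for rps14. In no member did the 3 rli arrays and the 3 WT arrays separate, whereas the groups separated for 28.1% of all tested probe sets. In RNA of whole plants, fewer cells of a type and less RNA per cell cannot be told apart.

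The wide intervals went with the spread in WT. The SD of the log2 values was larger in WT than in rli for 32 of 32 members, with a median of 1.40 (range 0.19 to 4.56) against 0.45 (0.06 to 1.38). WT replicates 1 and 2 were close to each other, within 2-fold for 31 of 32 members. WT replicate 3 held the highest value of all 6 arrays for 31 of 32, where 26.2% of all tested probe sets were highest there. WT replicate 1 or 2 held the lowest value for 27 of 32, against 26.9% of all tested. The medians of the rli arrays lay between. The median log2 intensity of the members was 9.52, 9.28 and 11.92 on the WT arrays (replicates 1 to 3) and 10.66, 9.79 and 10.89 on the rli arrays. Over all tested probe sets the medians were 6.45 to 6.57 on the 6 arrays. Within the mutant the order also recurred from gene to gene, with rli replicate 2 the lowest of the 3 rli arrays for 32 of 32 members, against 41.0% of all tested.

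**Figure D1:**
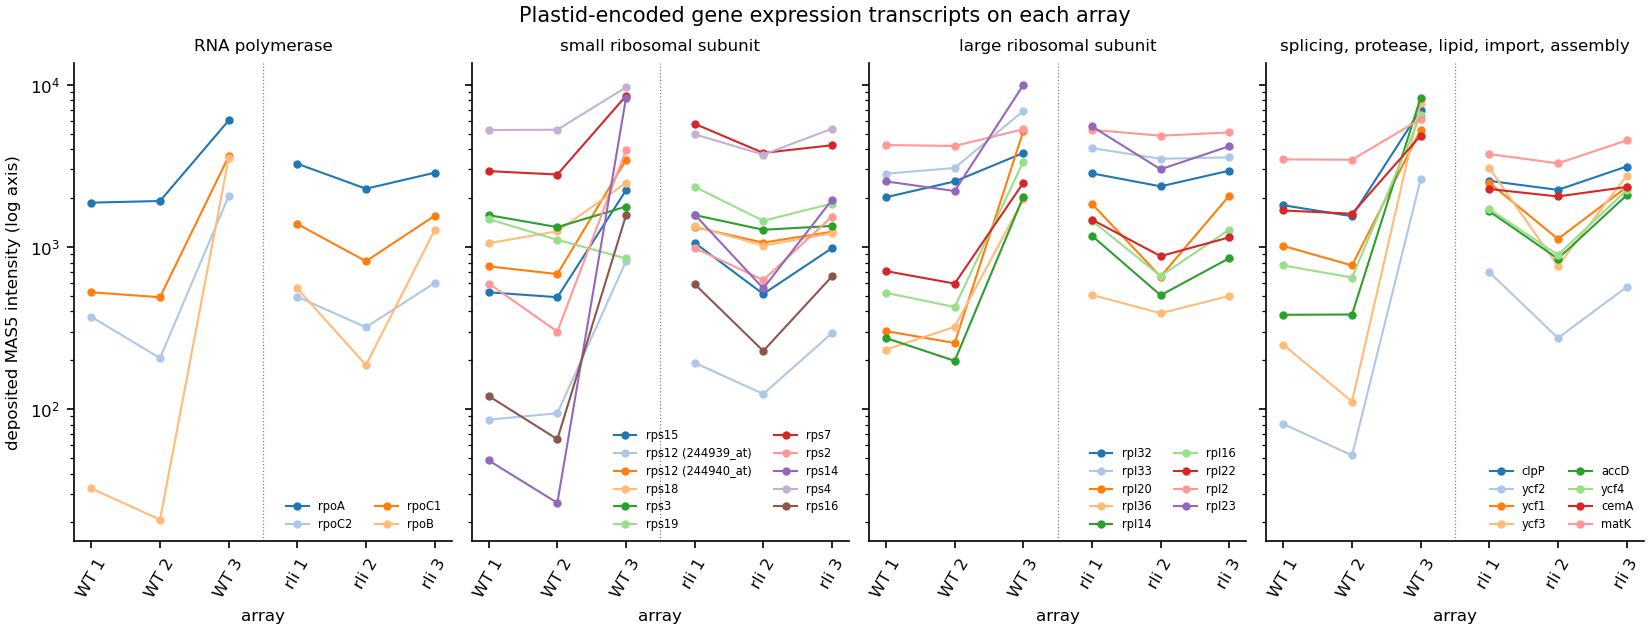
Deposited intensity (log axis) of the 32 plastid gene expression probe sets on each array, in panels by role. Each line joins the values of 1 probe set within a genotype, and the order of replicates has no meaning. WT replicate 3 is highest for every line except rps19, and rli replicate 2 is the lowest rli array for all 32.

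Among the subunits of the plastid RNA polymerase, rpoB spread the most. It encodes the beta subunit and read 32.4, 20.8 and 3529.9 on WT replicates 1 to 3, and 554, 187 and 1265 on the rli arrays in the same order. The rli arrays lay between the lower WT pair (replicates 1 and 2) and WT replicate 3, and WT replicate 2 was below the intensity that the expression filter corresponds to (24.7). The difference was 1.93 ± 1.61 (adjusted p = 0.56). Transcripts of rpoC1, which encodes the beta' subunit, read 525, 489.5 and 3611 in WT and 1384, 815 and 1553 in rli. Those of rpoC2, which encodes the beta'' subunit, read 371, 206 and 2057 in WT and 493, 319.6 and 599 in rli. Both had the same arrangement of arrays in a narrower span, with rli replicate 2 below WT replicate 1 for rpoC2. The alpha subunit gene rpoA lies outside the rpoB operon. It read 1874, 1918 and 6018 in WT and 3256, 2284 and 2864 in rli, again with every rli array above the lower WT pair and below WT replicate 3. Differences for rpoC1, rpoC2 and rpoA were 0.31 ± 0.65, -0.25 ± 0.68 and -0.01 ± 0.41, and none changed (adjusted p = 0.85 to 0.99).

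Among the small subunit proteins, rps14 had the widest span of all 32 members. It read 48.2, 26.4 and 8280.2 on WT replicates 1 to 3, and 1583, 555 and 1948 on the rli arrays in the same order. The mutant arrays all stood far above WT replicates 1 and 2 and far below WT replicate 3, and the groups overlapped. The log2 means were 7.78 ± 4.56 in WT and 10.22 ± 0.97 in rli (SD, n = 3), a difference of 2.45 ± 1.73 (adjusted p = 0.48). The intron-containing gene rps16 followed the same arrangement, reading 120.3, 65.2 and 1564 in WT and 589.6, 228 and 657 in rli. So did rps2, at 595, 301 and 3931 in WT and 985, 625 and 1538 in rli. Its rli replicate 2 exceeded WT replicate 1 only slightly. The 2 probe sets of rps12, a gene whose transcript is put together by trans-splicing, both were highest on WT replicate 3, at 815 for 244939_at and 3432 for 244940_at. Their rli arrays read 124 to 294 and 1062 to 1325, and their lower WT pairs 86.0 to 94.3 and 680.0 to 758.

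A few ribosomal protein transcripts departed from that arrangement, and rps19 did so fully. Its values were 1483, 1106 and 849 on WT replicates 1 to 3, and 2347, 1448 and 1849 on the rli arrays in the same order. Here WT replicate 3 was the lowest of the 6 arrays and rli replicate 1 the highest, and the groups overlapped only in that WT replicate 1 exceeded rli replicate 2. The difference was 0.73 ± 0.26 (unadjusted p = 0.019, adjusted p = 0.14), and its 95% interval, 0.15 to 1.31, was the only one among the 32 without 0. Leaving out WT replicate 3 gave 0.53 ± 0.21 (adjusted p = 0.12). For rps4 the values were 5253, 5278 and 9636 in WT and 4943, 3705 and 5349.8 in rli. WT replicate 3 was again the highest, but the other WT pair lay within the rli range, near its top, and the difference was -0.48 ± 0.28 (adjusted p = 0.36). Without WT replicate 3 the rps4 difference was -0.19 ± 0.18 (adjusted p = 0.54). For rps3, at 1569, 1324 and 1772 in WT and 1572, 1275 and 1346 in rli, all arrays lay close together. Transcripts of rps18 read 1052, 1249 and 2481 in WT and 1341, 1017 and 1214 in rli, with the rli arrays mixed among WT replicates 1 and 2. The lowest of the 6 arrays was rli replicate 2 for rps3, rps4, rps18 and the maturase gene matK. Of the other 2 small subunit genes, rps7 had every rli array above WT replicates 1 and 2 and below WT replicate 3, and rps15 differed from that only in that rli replicate 2 (513) lay just under WT replicate 1 (525). Their differences were 0.13 ± 0.40 and -0.03 ± 0.53.

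In the large subunit, rpl20 and rpl14 were the most spread. Transcripts of rpl20 read 303, 256 and 5174 in WT and 1842, 656 and 2069 in rli, and the difference was 0.88 ± 0.98 (adjusted p = 0.68). Transcripts of rpl14 read 274, 198 and 2037 in WT and 1171, 503 and 852 in rli, and the difference was 0.73 ± 0.73 (adjusted p = 0.64). In both, every rli array exceeded WT replicates 1 and 2, and WT replicate 3 exceeded all rli arrays. At the other end, rpl2 read 4246, 4188 and 5313 in WT and 5266, 4847 and 5077 in rli, and varied least of all 32 members in both genotypes (SD 0.19 and 0.06, n = 3). The remaining 6, rpl16, rpl22, rpl23, rpl32, rpl33 and rpl36, were also highest on WT replicate 3, and their differences lay between -0.19 for rpl36 and 0.24 for rpl16, none of them a change.

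Outside transcription and translation, ycf3 and ycf2 spread the most. Transcripts of ycf3, which encodes an assembly factor of photosystem I, read 249, 111 and 7727 on WT replicates 1 to 3, and 3061, 763 and 2739 on the rli arrays in the same order. Those of ycf2, which encodes a large ATPase of the inner envelope linked to protein import, read 80.9, 51.8 and 2614 in WT and 698, 274 and 566 in rli. Every rli array of both exceeded WT replicates 1 and 2, and WT replicate 3 exceeded every rli array. Transcripts of accD, which encodes a subunit of the acetyl-CoA carboxylase that starts fatty acid synthesis, read 381, 383 and 8302 in WT and 1657, 845 and 2079 in rli. The photosystem I assembly gene ycf4 read 768, 647 and 6495 in WT and 1708, 893 and 2240.1 in rli. For ycf1, which encodes a subunit of the inner envelope translocon, the values were 1014, 768 and 5266 in WT and 2484, 1119 and 2335 in rli. All 3 had the common arrangement of arrays. The protease subunit gene clpP read 1806, 1545 and 7015 in WT and 2552, 2246 and 3129.7 in rli, and the envelope protein gene cemA read 1677, 1602 and 4859 in WT and 2273, 2046 and 2342 in rli. Their rli values were close together and nearer to the lower WT pair than to WT replicate 3. The maturase gene matK, whose product takes part in splicing plastid group II introns, read 3463, 3447 and 6142 in WT and 3736, 3273 and 4534 in rli, with rli replicate 2 below every WT array. Differences for these 8 genes ranged from -0.13 ± 0.26 (matK) to 1.63 ± 1.28 (ycf3), and none changed.

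Without WT replicate 3, 20 of the 32 transcripts rose in rli and none fell. That is 62.5% of the members, where 8.72% of all tested probe sets rose and 6.56% fell. The unadjusted p was below 0.05 for 25 of 32, against 3970 of 13648 tested probe sets. Those that rose were 6 of 9 large subunit genes, 6 of 11 small subunit probe sets, 2 of 4 polymerase genes (rpoB and rpoC1) and 6 of the 7 other genes, cemA being the exception, and not matK. The median difference became 0.78, with 30 members above 0 and 2 below (rps3 and rps4), while the median over all tested probe sets was 0.01. The largest rises were those of rps14 by 5.07 ± 0.43 (adjusted p = 1.4e-05), rpoB by 4.29 ± 0.56 (adjusted p = 0.00039), ycf3 by 3.48 ± 0.50 (adjusted p = 0.00069) and ycf2 by 2.88 ± 0.34 (adjusted p = 0.00018). Next came rps16 at 2.33 ± 0.39, rpl20 at 2.29 ± 0.38, accD at 1.90 ± 0.29 and rpl14 at 1.77 ± 0.29. The smallest rise was that of clpP, at 0.65 ± 0.18 (adjusted p = 0.029). Among those that did not pass were rpoC2 (0.72 ± 0.28, adjusted p = 0.11), rpoA (0.55 ± 0.18, adjusted p = 0.056) and cemA (0.44 ± 0.15, adjusted p = 0.075). All 3 rli arrays exceeded both remaining WT arrays for 24 of 32 members, against 24.0% of all tested probe sets. This comparison rests on 2 WT arrays and was chosen because WT replicate 3 stands apart, so it gives the same transcripts under another choice of arrays and is no second experiment. Leaving out any of the other 5 arrays left 0 of 32 called.

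**Figure D2:**
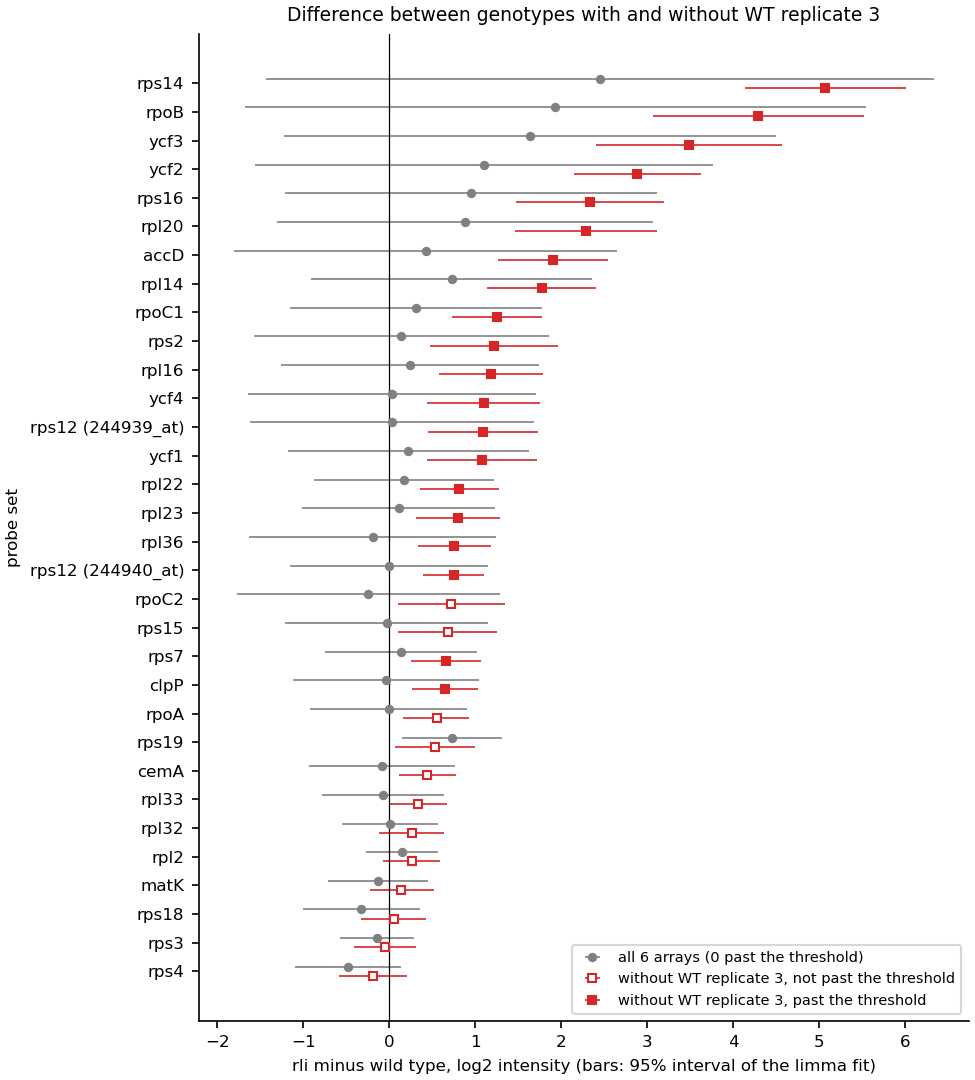
Difference between rli and WT (log2 intensity, horizontal axis) for each of the 32 probe sets, with bars for the 95% interval of the limma fit. Grey circles use all 6 arrays, where 0 passed the threshold and only the interval of rps19 leaves out 0. Red squares leave out WT replicate 3, and the filled ones mark the 20 that passed.

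The size of the excess on WT replicate 3 differed greatly between probe sets. Its intensity over the geometric mean of WT replicates 1 and 2 had a median of 5.34-fold over the 32 members and 0.965-fold over all tested probe sets. It exceeded 10-fold for 7 members, rps14 (232-fold), rpoB (136-fold), ycf3 (46.4-fold), ycf2 (40.4-fold), accD (21.7-fold), rpl20 (18.6-fold) and rps16 (17.7-fold). The ratios of rps14 and rpoB rest on low readings of WT replicates 1 and 2, near the filter intensity of 24.7 (below it for rpoB on WT replicate 2), where no detection calls were used, so their size is uncertain. The ratio was between 2-fold and 10-fold for 19. It lay between 1 and 2 for rps3 (1.23-fold), rpl2 (1.26-fold), rpl32 (1.68-fold), matK (1.78-fold) and rps4 (1.83-fold), and for rps19 the ratio was 0.663. On WT replicates 1 and 2 the mean log2 values of the genes just named ran from 10.32 (rps19) to 12.36 (rps4). Those of the 7 above 10-fold ran from 4.70 (rpoB) to 8.58 (accD). Whether the ratio follows signal level rather than the gene was not tested. By role the medians were 7.28-fold for the polymerase, 4.40-fold for the small and 4.21-fold for the large ribosomal subunit and 9.21-fold for the other 7 genes. The 7 probe sets of genes with a copy in each inverted repeat, or with 2 entries of the same symbol, had a median of 4.78-fold against 7.12-fold for the other 25, and which copy they read cannot be told apart.

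Transcripts that stood further out on WT replicate 3 also stood further out within the mutant. The log2 excess on WT replicate 3 and the log2 ratio of rli replicate 3 to rli replicate 2 had a Pearson r of 0.87 and a Spearman rho of 0.86 over the 32 members. With the ratio of rli replicate 1 to rli replicate 2 they were 0.80 and 0.78. The ratios on the 2 axes share no array, but the members share the same RNA samples and the same genome, are partly transcribed together and are no independent replicates, so these values are a description. Over all 13648 tested probe sets r was 0.39 and 0.29. For example, rpoB was 6.77-fold and rps14 3.51-fold higher on rli replicate 3 than on rli replicate 2, while rpl2 was 1.05-fold and rps3 1.06-fold. Of these, rpoB and rps14 read low on WT replicates 1 and 2, and rpl2 and rps3 read high. Whether signal level enters these ratios was not tested. The excess had an r of 0.30 with the log2 length of the gene's entry in the reference. That is not the transcript length: it is 114 bp for rps12, a trans-spliced gene, and 1032 bp for ycf1, whose second entry the reference lacks.

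**Figure D3:**
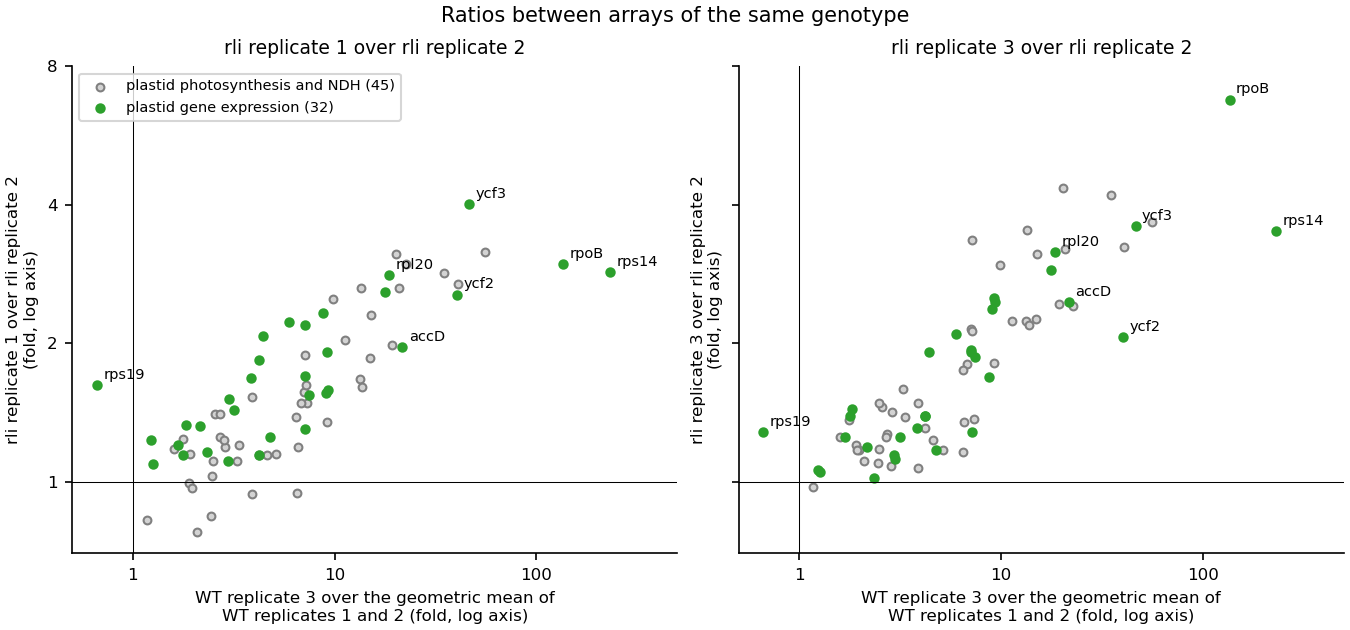
Ratio of WT replicate 3 to the geometric mean of WT replicates 1 and 2 (horizontal, log axis) against the ratio of rli replicate 1 (left) or 3 (right) to rli replicate 2 (vertical, log axis). Green points are the 32 plastid gene expression probe sets and grey points the 45 plastid photosynthesis and NDH probe sets, and in both the ratios rise together, with rps19 alone to the left of the line at 1.

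Neighbours on the plastid genome, by the order of genes in the reference, had similar ratios in some places and different ones in others. In the ribosomal protein cluster, WT replicate 3 exceeded the lower WT pair 4.21-fold for rpl23, 1.26-fold for rpl2 and 0.663-fold for rps19, the next along. It was 3.83-fold for rpl22, 1.23-fold for rps3, 7.12-fold for rpl16 and 8.73-fold for rpl14, and rpl36 and rpoA stood at 7.17-fold and 3.17-fold. In the rpoB operon, rpoC1 and rpoC2 were alike at 7.12-fold and 7.44-fold, and rpoB stood at 136-fold, over a base near the filter level. The adjacent rpl33 and rps18 were alike too, at 2.34-fold and 2.16-fold, followed by rpl20 at 18.6-fold. Next to rps14 (232-fold, also over a low base) lies psaB, a photosystem I gene known to be transcribed with it, at 1.97-fold, and psaA, beyond psaB, stood at 14.9-fold. These 2 photosynthesis genes were chosen after their values were seen. On WT replicates 1 and 2 psaB read 4907 and 4137 and psaA 396 and 203, so their ratios also stand on different bases. The probe sets read different stretches of shared precursors, and where along each gene the probes lie was not analysed here.

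The plastid photosynthesis and NDH transcripts, 45 probe sets of the same genome, had the same arrangement of arrays. None changed with all 6 arrays, with a median difference of 0.17, and without WT replicate 3 the rises were 27 of 45, with a median of 1.09. WT replicate 3 was highest for 43 of 45 and exceeded the lower WT pair by a median of 6.44-fold. Their ratios within the mutant followed the excess on WT replicate 3 with an r of 0.87 and 0.88. rli replicate 2 was the lowest rli array for 38 of these 45, against all 32 of the gene expression transcripts. No test of the difference between the 2 sets was made. Of 22 mitochondrial probe sets (nad, cox, ccb and matR symbols), 12 passed the expression filter, and of these none changed with all arrays and 8 of 12 rose without WT replicate 3. WT replicate 3 was the highest array for 5 of these 12, against 31 of the 32 plastid gene expression probe sets. Other features were shared. WT replicate 1 or 2 was the lowest of the 6 arrays for 12 of 12, and rli replicate 2 the lowest rli array for 12 of 12. All 3 rli arrays exceeded WT replicates 1 and 2 for 10 of 12. Over all 22, filtered or not, the median ratio of WT replicate 3 to the lower WT pair was 5.21-fold, against 5.34-fold for the members. The ratio for the 22 rests on low readings, with median log2 intensities of 3.69 and 3.27 on WT replicates 1 and 2. Those are under the filter level of 4.63, whereas the members had 9.52 and 9.28 there, so the 2 ratios are not on a like base.

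Several control measures moved in part with the same arrays. The control probe set for 25S rRNA read 285, 344 and 1927 in WT and 1319, 1048 and 863 in rli. That for 5S rRNA read 197, 38.2 and 2513 in WT and 844, 421 and 992 in rli. Both were highest on WT replicate 3 and lowest on WT replicates 1 and 2, as for most of the plastid transcripts. Within rli the 25S value was lowest on replicate 3, and the 5S value on replicate 2, the lowest rli array for all 32 members. The mean log2 ratio of 3' to 5' control probe sets, a measure of RNA integrity and labelling length, was 2.11, 2.40 and 2.83 in WT and 2.65, 2.39 and 2.68 in rli. This ratio was highest on WT replicate 3, and that of rli replicate 2 lay between those of WT replicates 1 and 2. It overlapped between the genotypes (2.45 ± 0.36 and 2.58 ± 0.16, SD, n = 3, two-sided exact permutation p = 0.7, where the smallest possible is 0.1), and the difference was 0.13 with all arrays and 0.32 without WT replicate 3. The part of these measures in the result was not tested, apart from a fit that held this 3'/5' ratio fixed, in which 15.6% of all tested probe sets changed and 2 of the 32 members did, rps19 upward by 0.81 (adjusted p = 0.031) and rps4 by -0.66 (adjusted p = 0.027).

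Against the photosynthesis transcripts on the same array, 7 of the 32 passed the threshold. A fit with the per-array median of the 45 photosynthesis probe sets as a covariate was added after seeing the data. The covariate ran from 9.82 to 12.39 in WT and from 10.39 to 11.33 in rli. In that fit 5 members rose, where 13.0% of all tested probe sets did, and 2 fell, where 8.81% did, so the shares were near those of the whole array. The rises were those of rps14 by 1.72 ± 0.25 (adjusted p = 0.00044), rpoB by 1.25 ± 0.19 (adjusted p = 0.0005), ycf3 by 1.10 ± 0.25 (adjusted p = 0.0079), rps19 by 0.76 ± 0.20 (adjusted p = 0.017) and rpl20 by 0.47 ± 0.14 (adjusted p = 0.034). The falls were -0.57 ± 0.14 for rps4 (adjusted p = 0.0097) and -0.43 ± 0.14 for rps18 (adjusted p = 0.046). Without WT replicate 3 and with no covariate, rps4 and rps18 differed by -0.19 ± 0.18 and 0.05 ± 0.17 (adjusted p = 0.54 and 0.9). Of the 45 photosynthesis probe sets themselves, 5 rose and 5 fell in the same fit, so passing it was not particular to the members. The fit takes a straight line through WT arrays at both ends of the range, with no WT array near the rli values, so any curve in the relation enters these differences.

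**Figure D4:**
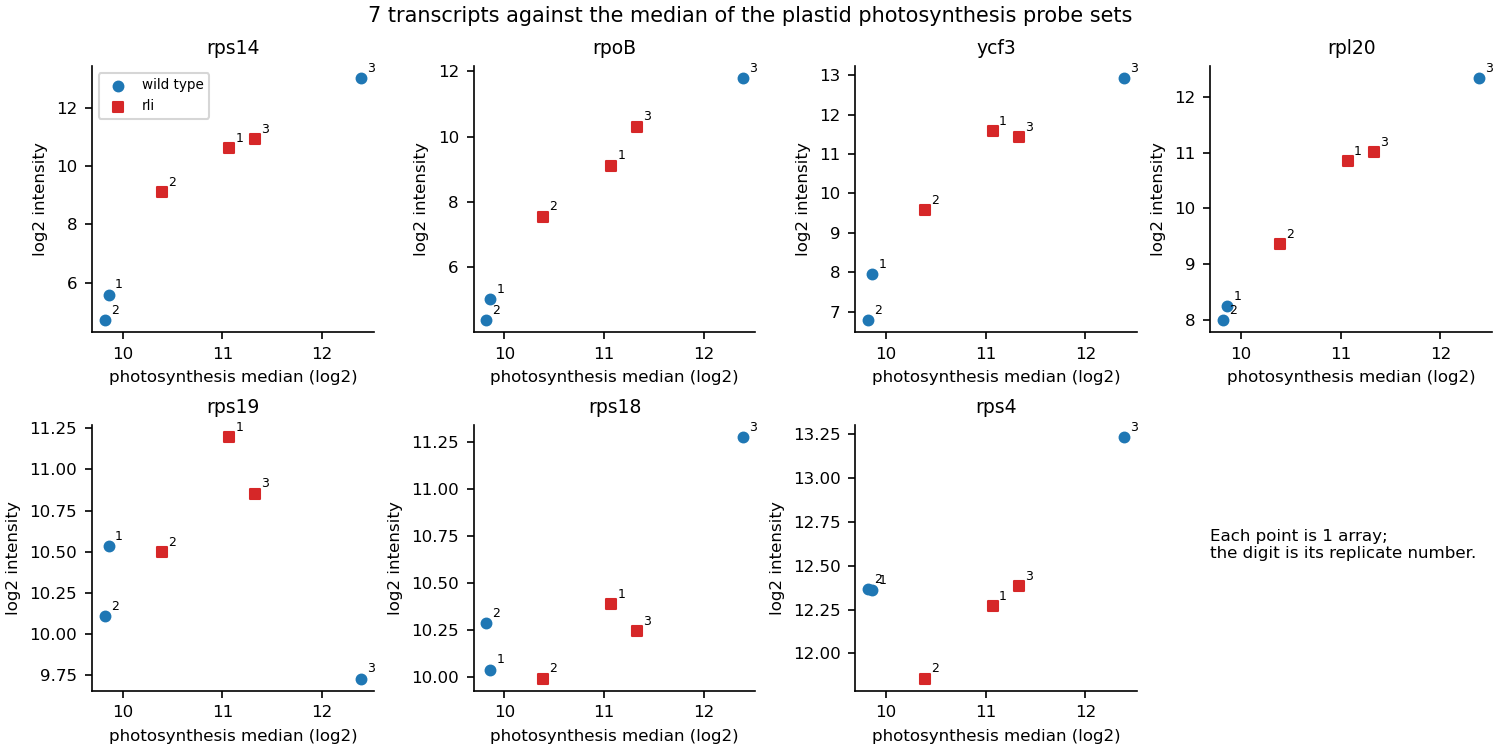
Log2 intensity of the 7 members that passed in the fit with the photosynthesis median (vertical) against that median on the same array (horizontal, log2). Blue circles are WT and red squares rli, and digits are replicate numbers. No WT array lies between the WT pair near 9.8 and WT replicate 3 at 12.39, where all rli arrays lie.

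The nuclear genes of the same machinery were read only in small part. The lists, given by locus, held 110 genes, of which 17 had a named probe set and 16 were tested. The fullest was the list of plastid ribosomal proteins made in the nucleus, with 10 of 34 loci tested. Of these 3 of 10 fell, where 2.53% of all tested probe sets fell, and none rose, and the difference was below 0 for all 10 (median -0.67, range -1.16 to -0.38). AT5G47190 read 894, 717 and 781 in WT and 299.6, 392 and 380.3 in rli, with no overlap, and fell by 1.16 ± 0.20 (adjusted p = 0.0073). AT4G17560 read 480.5, 508 and 433 in WT and 235, 303 and 249 in rli and fell by 0.86 ± 0.19 (adjusted p = 0.026), and AT3G13120 fell by 0.82 ± 0.19 (adjusted p = 0.036). Without WT replicate 3, 9 of 10 fell, all but AT5G65220 (-0.11 ± 0.16), against 6.56% of all tested. In the same fit 12 of 20 plastid-encoded ribosomal protein probe sets rose, against 8.72% of all tested. With all 6 arrays none of those 20 changed, so that contrast between the genomes rests on leaving out WT replicate 3.

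**Figure D5:**
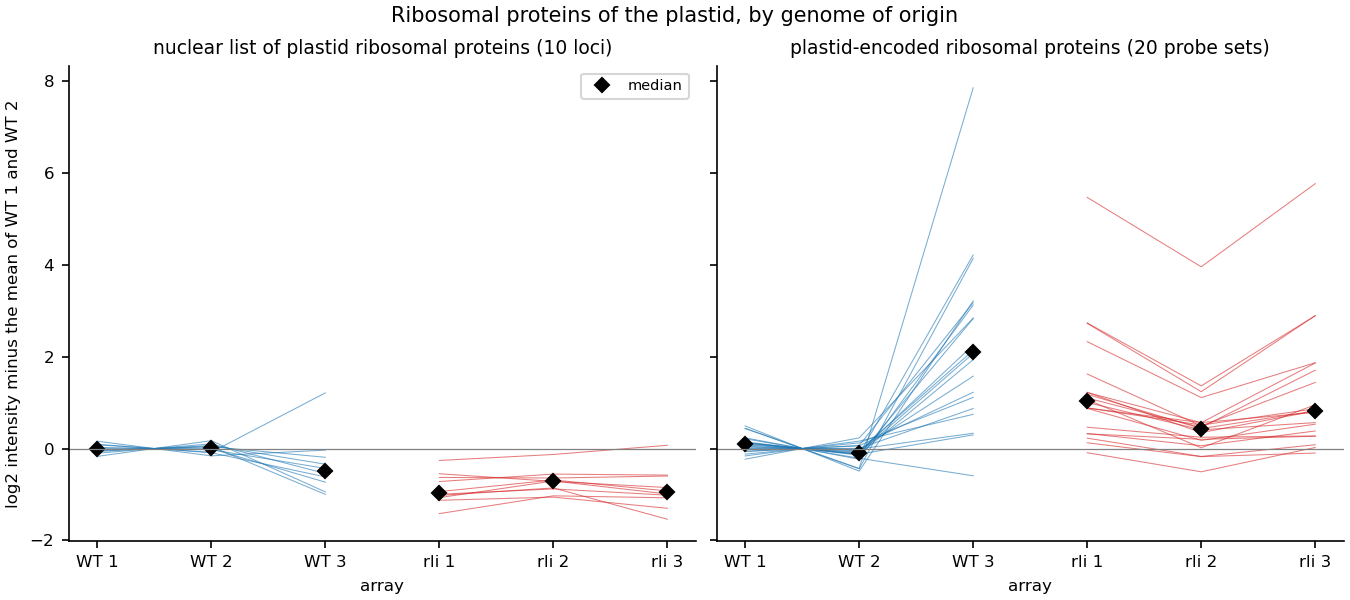
Log2 intensity minus the mean of WT replicates 1 and 2 on each array, for the 10 tested nuclear loci of plastid ribosomal proteins (left) and the 20 plastid-encoded probe sets (right). Each line is 1 probe set, black diamonds are medians, and the order of replicates has no meaning. On the left the rli medians lie below 0, and on the right WT replicate 3 and the rli arrays lie above 0.

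The other nuclear lists gave no change. In the list for RNA processing, editing and decay 4 of 30 loci were tested, and the smallest p-values were those of AT5G46580 (-0.19 ± 0.19, adjusted p = 0.64) and AT2G37220 (-0.53 ± 0.37, adjusted p = 0.46). AT2G37220 read 744, 755 and 287 in WT and 308, 504 and 342 in rli, and without WT replicate 3 it fell by 1.00 ± 0.21 (adjusted p = 0.0072). Of the Clp protease partners 2 of 10 were tested, CLPP4, a subunit of the same protease core as clpP, at -0.30 ± 0.24 and AT1G09130 at 0.05 ± 0.30. Leaving out WT replicate 3 gave -0.54 ± 0.17 and -0.28 ± 0.19 (adjusted p = 0.056 and 0.36). In the list of sigma factors and polymerases only AT5G15700 of 9 loci had a named probe set, and it lay below the filter. The lists of polymerase-associated proteins (15 loci), acetyl-CoA carboxylase partners (4) and import partners of ycf1 and ycf2 (8) had none, so the nuclear side of plastid transcription was not read here.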

How the data were processed

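RNA of 6 samples, 3 WT and 3 rli by their titles, was read on 1-colour ATH1 arrays. The deposited files hold a linear intensity for each probe set. The submitters' processing notes name MAS5 and GCOS, whose versions are not given in the sources used here, and the authors' scaling to an equal trimmed mean was kept. Here they were moved to the log2 scale, and no detection calls were used. Of the 22810 probe sets, 14016 are listed in the platform's gene table, 13513 of them with 1 gene and 503 with several, and 8794 are unnamed here. In the reference gene table (TAIR10.1), used for names and gene order only, 7 member probe sets match 2 entries of 1 symbol and were named by it.

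The 64 control probe sets were left out. Probe sets with a mean log2 value at or above the 40th percentile (4.63) were tested, 13648 in all, and all 32 members passed, 31 of them above that level on every array. Genotypes were compared in R 4.3.3 with limma 3.58.1 (lmFit, eBayes with an intensity trend, two-sided, Benjamini-Hochberg adjustment, threshold 0.05). Stage could not enter the fit, since its label splits the arrays just as genotype. On simulated data with 200 changed probe sets among 13648, the fit recovered 0% at a log2 difference of 1, 74% at 2 (2 false among 150 calls) and 89% at 3 (9 false among 187 calls). The simulated arrays were independent and normal, with 1 spread per probe set that included WT replicate 3. They held no outlying array, and the real fit called 928 probe sets, some of them below 1 (AT4G17560, -0.86 ± 0.19). These rates are therefore not the sensitivity of the real fit. The number of arrays limits the precision. Python 3.11.15 with matplotlib 3.10.9 drew the figures.

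The members and the gene lists were chosen with earlier results of these data known. Any member could be named, and in each nuclear list all loci past the threshold, or the 2 of lowest p in a list with no such locus. Deviations from group means of same-numbered samples had correlations of -0.09, 0.33 and 0.32, and those of differently numbered samples -0.36 to 0.27. These values do not settle whether the numbers pair samples. The main fit did not pair them, and a replicate block was among the alternatives. The alternatives were a filter at the 20th percentile, at the 60th or none, quantile normalization, median centring, an added 2.45 (10th percentile), a floor of 9.34 (20th percentile), no trend, robust variance, array weights, a replicate block, the 3'/5' ratio as a covariate, each array left out and the removal of probe sets marked _s_at or _x_at. The photosynthesis covariate was added after seeing the data.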

Additional observations from a re-analysis of the deposited data

How the results depend on the processing

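The count of 0 changed members was the same under 15 of 19 alternatives, and it was also 0 with possibly cross-hybridising probe sets left out. The exceptions were array weights (18, all higher in rli, with WT replicate 3 given a weight of 0.19), the 3'/5' covariate (2), the photosynthesis covariate (7) and leaving out WT replicate 3. Over the arrays left out in turn it ranged from 0 to 20, with 20 only without WT replicate 3. The median difference of 0.12 ranged from -0.28 (without WT replicate 2) to 0.78 (without WT replicate 3). It was 0.36 after quantile normalization, 0.04 after median centring, -0.26 with the 3'/5' covariate and 0.74 with array weights. All these shifts were smaller than the pooled within-group SD of the array medians, 1.11. WT replicate 3 itself widens that SD (11.92, against 9.52 and 9.28 on WT replicates 1 and 2), so a shift below it says little. Without WT replicate 3, 3 members with a main difference just below 0 rose. Over the arrays left out, rps12 (244940_at) ranged from -0.42 to 0.75, clpP from -0.44 to 0.65 and rpl36 from -0.78 to 0.75. Of all tested probe sets, 928 changed, against 593 without the intensity trend, 332 after median centring, 3181 with array weights, 2134 with the 3'/5' covariate and 2978 with the photosynthesis covariate. It was 497, 555 and 2085 without WT replicates 1, 2 and 3 and 403, 498 and 389 without rli replicates 1, 2 and 3. The cause of these shifts was not tested. Without WT replicate 3, 927 of the 928 were still called. With the replicate block 1300 probe sets and 0 members changed, and it changed no member's call. The difference in the 3'/5' log2 ratio, 0.13, ranged from -0.04 to 0.32 over the arrays left out. With 3 arrays per group, precision differed between members, from a 95% interval of -0.27 to 0.57 for rpl2 to one of -1.43 to 6.33 for rps14.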
